A study of Mus musculus with 2 samples.

Results

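Matrix metalloproteinases and their tissue inhibitors were followed in mouse skin as 10 genes: 7 metalloproteinases (Mmp2, Mmp3, Mmp9, Mmp11, Mmp12, Mmp13 and Mmp14) and 3 inhibitors (Timp1, Timp2 and Timp3). They were taken by symbol from the 55353 gene symbols of the count matrices, and each symbol was found once. The matrices hold single-cell 3′ RNA counts of the dorsal skin of 7-week-old C57BL/6 mice. A single library came from skin given Shi-Bi-Man, a natural product preparation, together with imiquimod, and 1 library from skin given imiquimod without Shi-Bi-Man; they are called the Shi-Bi-Man library and the imiquimod library here. Both groups therefore carry imiquimod, a Toll-like receptor 7 agonist that brings on a psoriasis-like inflammation of mouse skin, and untreated skin was not analysed here. The study asked how Shi-Bi-Man acts in this model. How many mice stand behind a library, the doses and the days of treatment are not given in the sources used here. With 1 library per group no difference could be tested against replicates, so each value below describes these 2 libraries, and its 95% interval covers counting error only.

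Matrix metalloproteinases are zinc-dependent enzymes that cut collagens, elastin and other proteins of the extracellular matrix, and most are secreted as inactive proenzymes. TIMP proteins bind the active enzymes and block them, so the amount of matrix breakdown in skin depends on both families. In dermis the fibroblasts are the main source of several family members, whereas macrophages are known for macrophage elastase (Mmp12), and wounded or inflamed epidermis can make others.

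The Shi-Bi-Man library held 8054 cell barcodes with 20837259 counts, and the imiquimod library held 11316 barcodes with 28920316 counts. After filters and removal of likely doublets 7554 cells (median 1790 counts) and 10469 cells (median 1600.0 counts) were kept. Between the 2 libraries 49 barcodes were shared. Cells were clustered without the 10 genes and named by marker genes. The fibroblast-like class held 2208 cells in the Shi-Bi-Man library and 1969 in the imiquimod library, the macrophage and monocyte-like class 727 and 1467, the keratinocyte-like class 2576 and 2097, and the class with T and NK cell markers (T/NK-like) 491 and 2427. All 8 fibroblast markers were detected in every class named here, so a count of a fibroblast gene outside fibroblasts can come from free RNA. Summed over those 8 markers, the T/NK-like cells held 3258 CPM in the Shi-Bi-Man library and 1098 CPM in the imiquimod library (CPM, counts per 1000000 counts of the class). These cells serve as the background level for fibroblast genes below.

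Most counts of the family lay in the fibroblast-like class. It held 89.4% of all Mmp2 counts in the Shi-Bi-Man library and 86.1% in the imiquimod library. For Mmp3 the shares were 92.5% and 92.2%, and for Mmp14 they were 86.6% and 82.6%. Mmp11 was likewise a fibroblast gene, with 87.7% and 92.2% of its counts there. Timp1 (83.0% and 82.6%) and Timp2 (80.8% and 73.4%) followed. Timp3 was spread more widely, with 61.7% and 66.2% of its counts in fibroblast-like cells and most of the rest in keratinocyte-like and endothelial-like cells. Mmp12 and Mmp13 lay mainly in the macrophage and monocyte-like class, which held 85.1% and 86.3% of Mmp12 counts and 77.8% and 57.5% of Mmp13 counts. Mmp9 was rare, with 16 counts in all barcodes of the Shi-Bi-Man library and 171 in the imiquimod library.

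**Figure D1:**
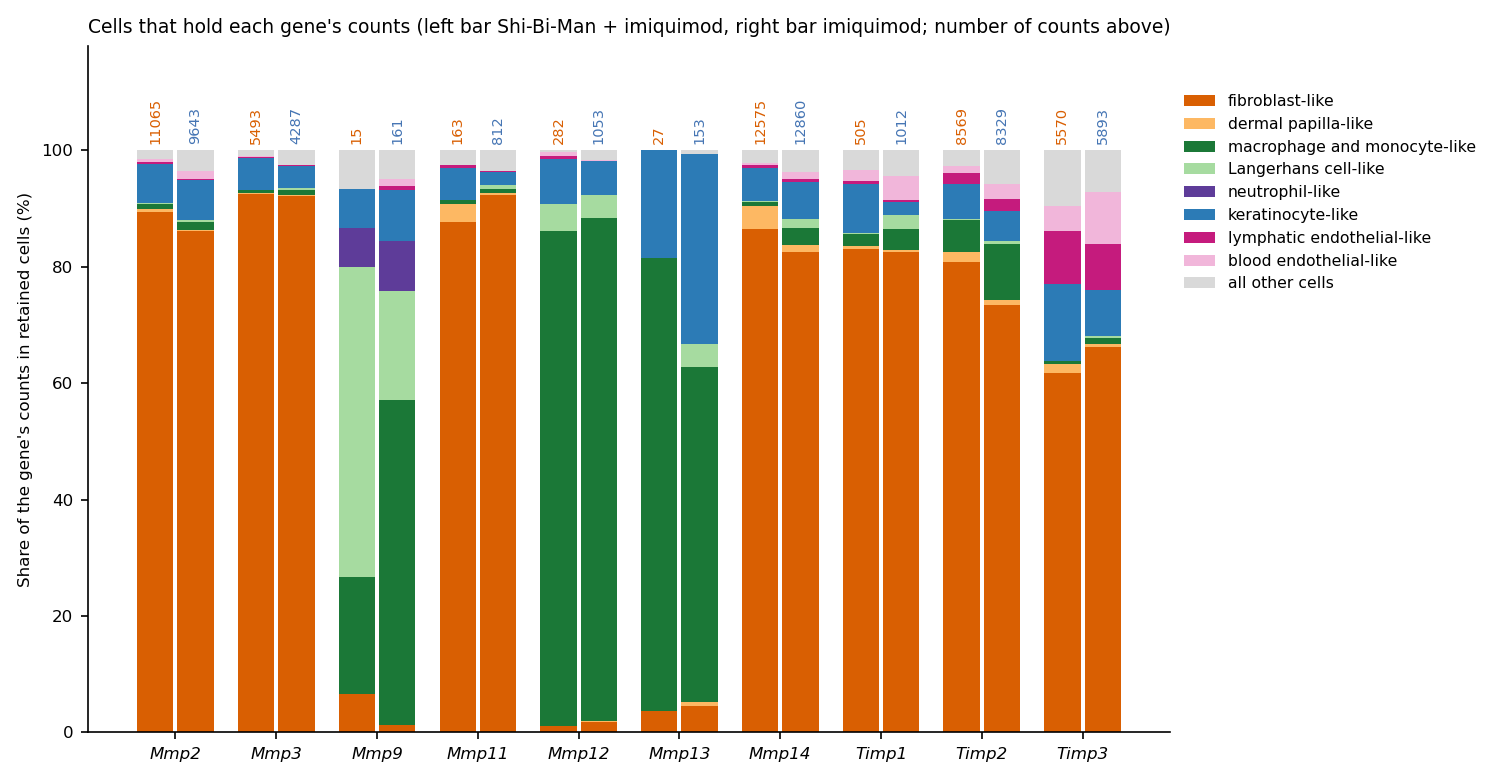
Share of each gene's counts (percent, vertical axis) by cell class, with the Shi-Bi-Man library as the left bar and the imiquimod library as the right bar of each pair; numbers above the bars are counts. Fibroblast-like cells hold 89.4% and 86.1% of Mmp2 counts, and macrophage and monocyte-like cells 85.1% and 86.3% of Mmp12 counts.

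The promoters of the family differ in letters known to bind AP-1, the Fos and Jun dimer through which inflammatory signals act on several metalloproteinase genes. RefSeq start-site windows of 250 bases before to 50 after the start (build GRCm38.p6) were found for 8 of the 10 genes, Mmp12 having 2 starts; Mmp2 and Mmp9 had no entry. The AP-1 motif TGANTCA, searched on both strands, was found in 3 of these 9 windows, against 7.81% of all 32851 windows in the table. The same 3 windows held TATAAA, also searched on both strands, which 13.6% of all windows hold. The 3 windows belong to Mmp3, Mmp12 and Mmp13, which lie within 1 cluster of metalloproteinase genes on chromosome 9, and they are shown with both motifs in capitals because their genes are the stromelysin, elastase and collagenase described below. The Mmp11 window holds neither motif and is shown beside them because Mmp11 had the lowest ratio among fibroblast members with over 100 counts. The Mmp3 window is chr9:7445572-7445871 on the plus strand, the Mmp12 window is that of its second start at chr9:7347124-7347423 on the plus strand, the Mmp13 window is chr9:7272264-7272563 on the plus strand, and the Mmp11 window is chr10:75932453-75932752 on the minus strand.
Mmp3: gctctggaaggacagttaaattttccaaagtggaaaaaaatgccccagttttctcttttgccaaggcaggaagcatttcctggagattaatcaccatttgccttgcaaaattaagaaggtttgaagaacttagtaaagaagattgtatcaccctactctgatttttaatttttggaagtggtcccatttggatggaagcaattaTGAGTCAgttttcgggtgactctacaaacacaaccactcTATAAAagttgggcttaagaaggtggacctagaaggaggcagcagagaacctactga
Mmp12: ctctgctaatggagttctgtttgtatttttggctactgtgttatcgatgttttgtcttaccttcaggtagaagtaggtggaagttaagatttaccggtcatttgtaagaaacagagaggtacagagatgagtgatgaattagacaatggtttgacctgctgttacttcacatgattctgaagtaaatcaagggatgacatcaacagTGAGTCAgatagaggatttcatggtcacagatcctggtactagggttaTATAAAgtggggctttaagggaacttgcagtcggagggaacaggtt
Mmp13: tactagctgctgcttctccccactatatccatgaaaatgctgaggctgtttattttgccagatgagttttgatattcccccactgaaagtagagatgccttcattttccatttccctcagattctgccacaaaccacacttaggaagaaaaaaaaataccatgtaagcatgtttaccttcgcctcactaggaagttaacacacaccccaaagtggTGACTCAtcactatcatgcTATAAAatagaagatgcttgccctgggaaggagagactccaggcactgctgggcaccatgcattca
Mmp11: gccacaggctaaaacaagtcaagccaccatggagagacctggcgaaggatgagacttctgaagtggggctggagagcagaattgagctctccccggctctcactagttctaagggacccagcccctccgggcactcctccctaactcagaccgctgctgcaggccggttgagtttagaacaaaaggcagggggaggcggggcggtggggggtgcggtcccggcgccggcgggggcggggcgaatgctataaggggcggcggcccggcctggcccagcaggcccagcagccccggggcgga
The AP-1 letters begin 46 bases before the start in Mmp3, 44 in Mmp12 and 35 in Mmp13. TATAAA begins 7 bases before the start in Mmp3 and 16 in Mmp13; in Mmp12 it lies past the annotated start. These are matches of letters only, and binding was not measured.

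In the fibroblast-like class as a whole the abundant members were close in the 2 libraries, and Mmp11 and Timp1 were lower with Shi-Bi-Man. Of the 8 members with at least 20 counts, none was 1.5-fold or more higher and 3 were that much lower (Mmp11, Mmp12 and Timp1). Among all 12815 genes measured in this class 10.2% were that much higher and 10.1% that much lower. The median log2 ratio, Shi-Bi-Man over imiquimod library, was -0.25 over the 8 members and 0.02 over all genes. Mmp12 counts for little here, with 3 counts against 18.

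The fibroblast-like class fell into 5 clusters, 4 of them named by marker trios. The Cyp2f2 Cpxm1 Saa3 subset held 755 cells in the Shi-Bi-Man library and 404 in the imiquimod library, the Igfbp2 Mme Sema3a subset 623 and 243, the Gpx3 Thbs4 Myoc subset 373 and 660, and the Coch Lrrc15 Fmod subset 350 and 435. The fifth, led by Smpd3 and Tmem100, held 107 and 227 cells, and its fibroblast name rests on 3 markers. The mix of subsets therefore differed between the libraries, and levels are given below for each subset beside the class.

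**Figure D2:**
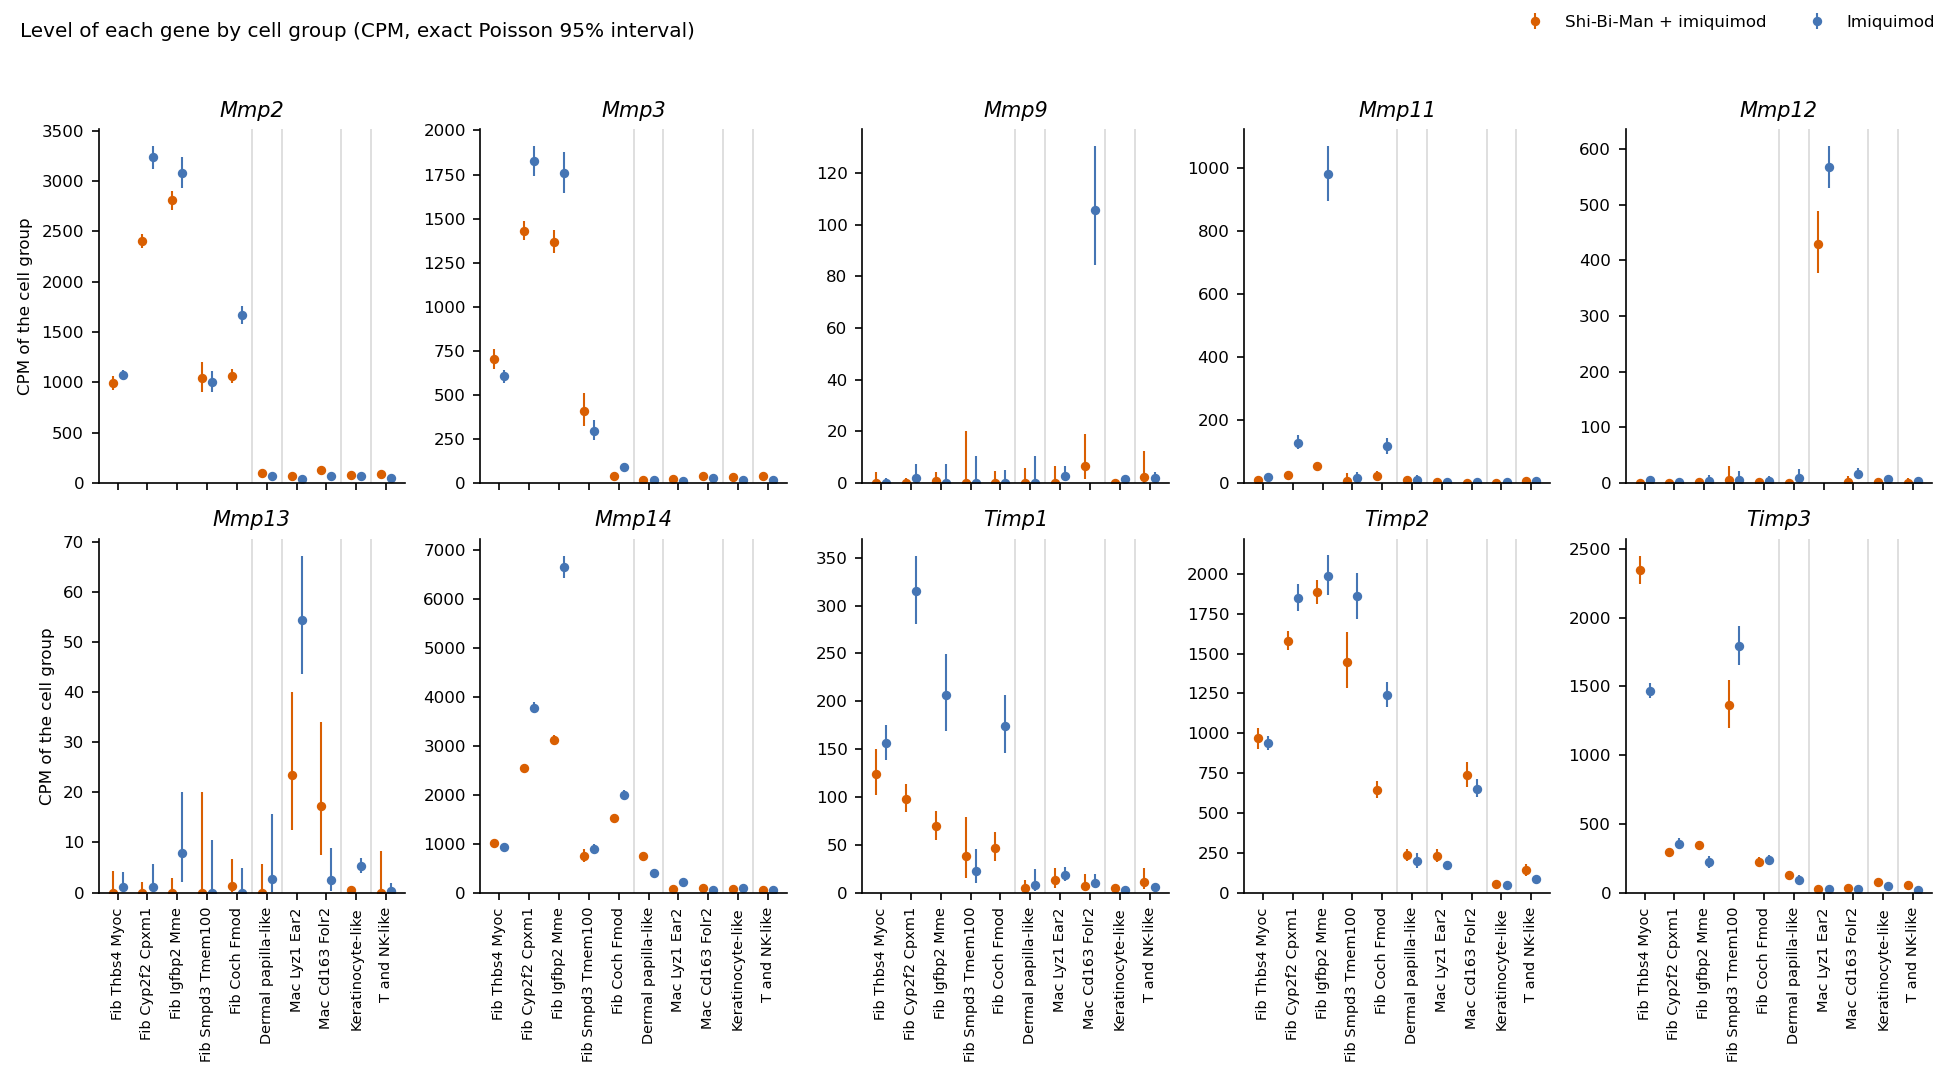
Level of each gene (CPM, vertical axis, one panel per gene) in 5 fibroblast subsets, dermal papilla-like cells, 2 macrophage clusters, keratinocyte-like cells and T/NK-like cells. Shi-Bi-Man points stand left of imiquimod points and bars are 95% Poisson intervals; Mmp11 in the Igfbp2 Mme Sema3a subset is at 53.3 CPM in the Shi-Bi-Man library and 979 CPM in the imiquimod library.

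Mmp11 (stromelysin-3, a metalloproteinase that furin activates before secretion and that stromal cells make during tissue remodelling; chr10:75923222-75936496, minus strand) showed the lowest ratio of the family members with over 100 counts in fibroblasts. The class held 28.8 CPM (24.2 to 33.9) in the Shi-Bi-Man library and 170.4 CPM (158 to 183) in the imiquimod library, from 143 and 749 counts. The log2 ratio was -2.56 (-2.83 to -2.31). Much of the Mmp11 RNA came from 1 subset, the Igfbp2 Mme Sema3a cells, which held 41.7% of the library's Mmp11 counts with Shi-Bi-Man and 61.3% with imiquimod. In that subset the level was 53.3 CPM (41.4 to 67.6) against 979 CPM (894 to 1068), a log2 ratio of -4.19 (-4.58 to -3.83), from 68 counts in 44 cells against 498 counts in 91 cells. The 2 intervals are far apart. The Cyp2f2 Cpxm1 Saa3 subset ran the same way, at 25.7 against 128 CPM with a log2 ratio of -2.30 (-2.83 to -1.82). The Coch Lrrc15 Fmod subset held 23.2 against 116 CPM, a log2 ratio of -2.30 (-3.12 to -1.60). Only in the Gpx3 Thbs4 Myoc subset, where Mmp11 was scarce in both libraries (8 and 32 counts), did the interval reach past 0, at -0.88 (-2.28 to 0.20); in the Smpd3 Tmem100 cluster the counts were 1 and 5, too few for a ratio.

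After thinning each cell to 500 counts, Mmp11 was detected in 2.41% (1.35% to 3.94%) of Igfbp2 Mme Sema3a cells in the Shi-Bi-Man library and 16.9% (12.4% to 22.2%) in the imiquimod library (exact binomial intervals). Counted without thinning, 7.06% and 37.4% of them held Mmp11; their median depth was 1822 and 1775 counts. T/NK-like cells gave a thinned share of 0.407% and 0.412% at median depths of 776 and 999. The subset thus stood above this background in both libraries. A finer clustering split it into a cluster led by Magi2 and Cpa6 and one led by Igfbp2 and Cadps. Mmp11 was at 31.3 against 396 CPM in the Magi2 Cpa6 cluster (391 and 132 cells), and at 80.4 against 2009.6 CPM in the Igfbp2 Cadps cluster (223 and 62 cells). Fibroblast markers were themselves a larger part of the subset's RNA in the Shi-Bi-Man library, with 120502 CPM over the 8 markers against 88574 CPM; their part in the lower Mmp11 ratio was not tested. Mmp11 overlaps Chchd10, a mitochondrial gene on the other strand, and whether the counting used strand is not stated; Chchd10 had 18 counts against 19 in the subset, beside 68 and 498 Mmp11 counts.

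Mmp14 (membrane type 1 metalloproteinase, a collagenase anchored in the cell membrane that also activates proMmp2; chr14:54431612-54445364, plus strand) was nearly level over the class but not in the same subset. The class held 2189 CPM (2148 to 2231) in the Shi-Bi-Man library and 2417 CPM (2371 to 2463) in the imiquimod library, a log2 ratio of -0.14 (-0.18 to -0.10). In the Igfbp2 Mme Sema3a subset the level was 3117 CPM (3021 to 3215) against 6657 CPM (6435 to 6885), a log2 ratio of -1.09 (-1.16 to -1.03). This subset had the highest Mmp14 level of all cell groups in both libraries. The ratio was -0.57 (-0.63 to -0.51) in the Cyp2f2 Cpxm1 Saa3 subset (2544 against 3780.2 CPM) and -0.39 (-0.50 to -0.28) in the Coch Lrrc15 Fmod subset (1524 against 1994 CPM). In the Smpd3 Tmem100 cluster (753 against 894 CPM) and the Gpx3 Thbs4 Myoc subset (1007 against 937 CPM) the interval took in 0, with ratios of -0.25 (-0.55 to 0.04) and 0.10 (-0.02 to 0.22). With at least 500 genes required per cell, the Mmp14 ratio of the Coch Lrrc15 Fmod subset turned to 0.35. Mmp14 in the subset was lower in both of its finer clusters, at 2940 against 6263 CPM in the Magi2 Cpa6 cluster and 3313 against 8465 CPM in the Igfbp2 Cadps cluster. The Igfbp2 Mme Sema3a and Cyp2f2 Cpxm1 Saa3 subsets, where Mmp14 was highest, made up 28.2% and 34.2% of fibroblast-like cells with Shi-Bi-Man against 12.3% and 20.5% with imiquimod. With the Shi-Bi-Man clusters weighted as in the imiquimod library, an alternative chosen after seeing the data, the Mmp14 class ratio became -0.54.

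**Figure D3:**
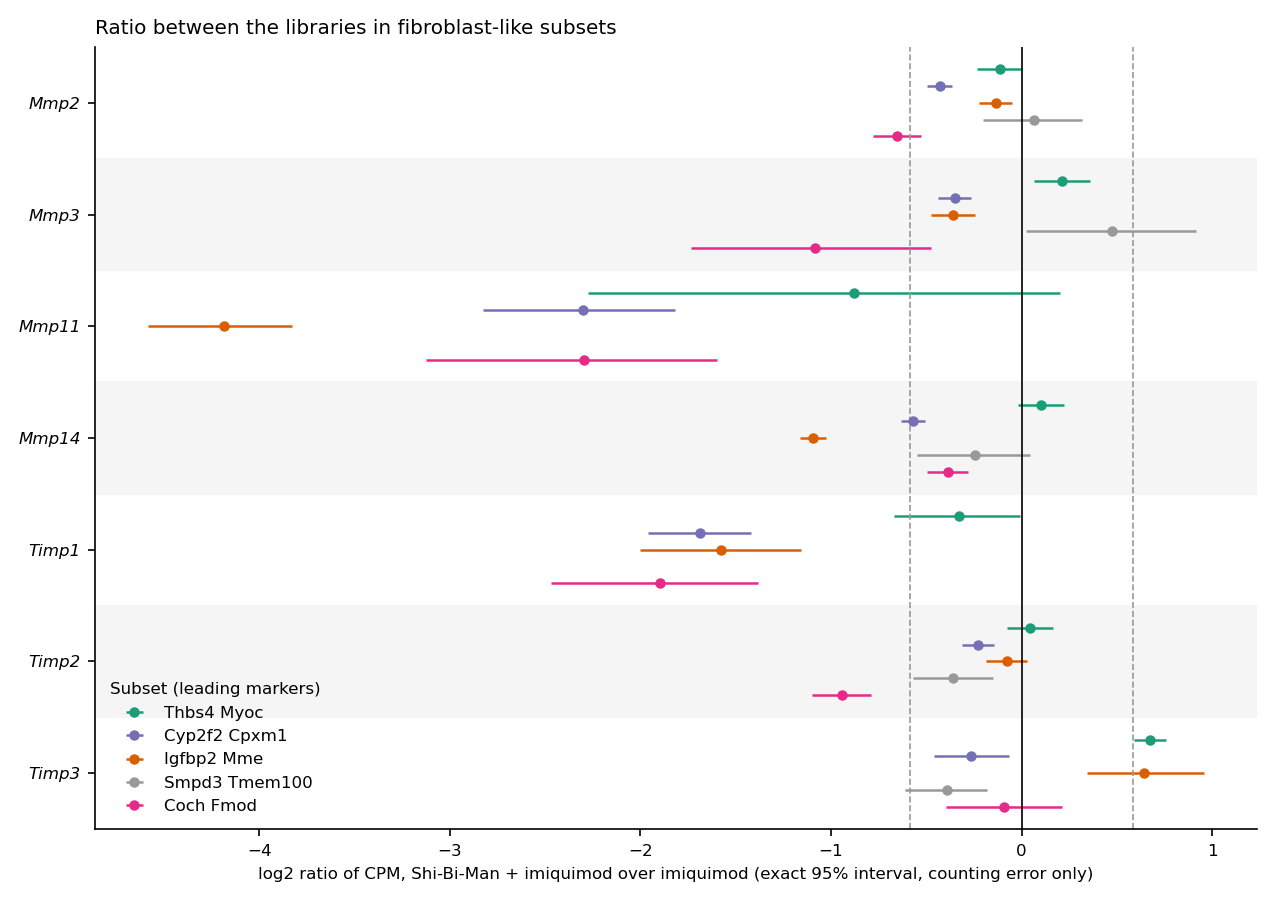
Log2 ratio (horizontal axis, Shi-Bi-Man over imiquimod library) of 7 members in the subsets of the fibroblast-like class, with 95% intervals from counting error. The class as a whole is not drawn, and dashed lines mark 1.5-fold. Mmp11 lies at -4.19 and Mmp14 at -1.09 in the Igfbp2 Mme Sema3a subset, and Timp3 lies at 0.68 in the Gpx3 Thbs4 Myoc subset.

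Mmp2 (gelatinase A, which cuts type IV collagen and denatured collagen; chr8:92827291-92853420, plus strand) had the narrowest range of subset ratios among Mmp2, Mmp3, Mmp11 and Mmp14. The class held 1989 CPM (1950.2 to 2029) against 1888 CPM (1848 to 1929), a log2 ratio of 0.08 (0.03 to 0.12). Its level was highest in the Igfbp2 Mme Sema3a subset (2809 against 3085 CPM) and the Cyp2f2 Cpxm1 Saa3 subset (2402 against 3236 CPM), with ratios of -0.14 and -0.43. The Gpx3 Thbs4 Myoc subset (989.7 against 1072 CPM) and the Smpd3 Tmem100 cluster (1047 against 1003 CPM) differed by -0.12 and 0.06. Only the Coch Lrrc15 Fmod subset passed 1.5-fold, at 1059 against 1668 CPM with a ratio of -0.66 (-0.78 to -0.53); with at least 500 genes required per cell this ratio was 0.24. With the imiquimod mix of clusters the class ratio was -0.30.

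Mmp3 (stromelysin-1, which cuts many matrix proteins and activates other proenzymes; chr9:7445822-7455975, plus strand) is the first of the genes whose promoter is shown above. The class held 1022 CPM (994 to 1050.2) in the Shi-Bi-Man library and 899 CPM (871 to 927) in the imiquimod library, a log2 ratio of 0.18 (0.12 to 0.25). Mmp3 was at 1432 against 1826 CPM in the Cyp2f2 Cpxm1 Saa3 subset and at 1369 against 1757 CPM in the Igfbp2 Mme Sema3a subset, lower in both, with ratios of -0.35 (-0.44 to -0.26) and -0.36 (-0.48 to -0.24). It was 701 against 605 CPM in the Gpx3 Thbs4 Myoc subset and 409 against 295 CPM in the Smpd3 Tmem100 cluster, with ratios of 0.21 (0.07 to 0.36) and 0.47 (0.02 to 0.91). The Coch Lrrc15 Fmod subset had little Mmp3 in either library, 34 counts against 67 with a ratio of -1.08 (-1.73 to -0.48), which lay between -1.22 and 0.75 over the alternatives. The class sum was thus slightly higher with Shi-Bi-Man while both subsets richest in Mmp3 were lower, and with the imiquimod mix of clusters the class ratio was -0.16.

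Of the inhibitors, Timp1 (a secreted inhibitor of most metalloproteinases and an inflammation-responsive gene, on chrX:20870166-20874735, plus strand) was lower with Shi-Bi-Man in fibroblasts. The class held 84.3 CPM (76.4 to 92.7) against 190.2 CPM (178 to 204), from 419 and 836 counts, a log2 ratio of -1.17 (-1.35 to -1.0). The 3 subsets whose Mmp11 interval lay below 0 were also past 1.5-fold lower for Timp1. Timp1 was at 97.9 against 315 CPM in the Cyp2f2 Cpxm1 Saa3 subset, with a ratio of -1.69 (-1.96 to -1.42). The Igfbp2 Mme Sema3a subset held 69.0 against 206 CPM, a ratio of -1.58 (-2.0 to -1.16), and the Coch Lrrc15 Fmod subset 46.3 against 174 CPM, a ratio of -1.90 (-2.47 to -1.38). In these 2 subsets single imiquimod cells held 16.2% and 17.4% of the counts. The Gpx3 Thbs4 Myoc subset was closer, at 124 against 156 CPM and a ratio of -0.33 (-0.67 to -0.01). Timp1 lies inside Syn1 on the other strand, which had 38 and 48 counts in whole libraries.

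Timp2 (which inhibits metalloproteinases and, bound to Mmp14, also takes part in proMmp2 activation; chr11:118301069-118355740, minus strand) was level over the class, at 1393 CPM (1361 to 1426) against 1390.2 CPM (1356 to 1425) and a log2 ratio of 0.00. The 1 subset past 1.5-fold was Coch Lrrc15 Fmod, at 646 against 1242 CPM with a ratio of -0.94 (-1.10 to -0.79). The other ratios were -0.23 in the Cyp2f2 Cpxm1 Saa3 subset, -0.08 in the Igfbp2 Mme Sema3a subset, 0.05 in the Gpx3 Thbs4 Myoc subset and -0.36 in the Smpd3 Tmem100 cluster. With at least 500 genes required per cell (207 and 304 cells), the Coch Lrrc15 Fmod ratio was -0.50 for Timp2, within 1.5-fold, while Mmp11 (-1.49) and Timp1 (-1.43) stayed past it. With the imiquimod mix of clusters the Timp2 class ratio was -0.22.

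Timp3 (the matrix-bound inhibitor, which also blocks the shedding protease ADAM17; chr10:86300372-86349506, plus strand) was the inhibitor that was higher with Shi-Bi-Man in some fibroblasts. In the Gpx3 Thbs4 Myoc subset, its richest fibroblast source with Shi-Bi-Man, it was at 2346 CPM (2245 to 2451) against 1468 CPM (1413 to 1525), a log2 ratio of 0.68 (0.59 to 0.76). The Igfbp2 Mme Sema3a subset held 344 against 220.1 CPM, a ratio of 0.64 (0.34 to 0.96) in the clustering used here. At a coarser clustering the trio marked 1 cluster together with the Cyp2f2 Cpxm1 Saa3 trio (1393 and 663 cells), and with 20 components it marked 2 clusters of 1427 and 700 cells in all; in these wider groups the Timp3 ratio was -0.17 and -0.13. The Smpd3 Tmem100 cluster ran the other way, at 1363 against 1792 CPM and a ratio of -0.39 (-0.61 to -0.18). The Cyp2f2 Cpxm1 Saa3 (-0.26) and Coch Lrrc15 Fmod (-0.09) subsets were nearer 0. Over the class Timp3 was lower, 692 against 887 CPM with a ratio of -0.36 (-0.43 to -0.29), while the Gpx3 Thbs4 Myoc subset made up 16.9% of fibroblast-like cells with Shi-Bi-Man against 33.5% with imiquimod. With the imiquimod mix of clusters the Timp3 class ratio turned to 0.45. Timp3 lies inside Syn3 on the other strand, which had 105 and 75 counts in whole libraries.

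Shares of fibroblast-like cells with a count, thinned to 500, ran in the same direction as the class levels for Timp1 and Mmp3 but not for Mmp14. Mmp14 was detected in 55.1% of these cells in the Shi-Bi-Man library and 51.2% in the imiquimod library. Its class level was slightly lower with Shi-Bi-Man. Timp1 was detected in 3.44% (2.72% to 4.29%) of the cells in the Shi-Bi-Man library and 6.04% (5.03% to 7.19%) in the imiquimod library, against 0.611% and 0.371% of T/NK-like cells. Unthinned, 13.4% and 20.7% of fibroblast-like cells held Timp1, with a median depth of 2080.5 and 1957 counts. Mmp3 was detected in 27.8% (25.9% to 29.7%) and 20% (18.3% to 21.8%) of fibroblast-like cells after thinning, against 2.04% and 0.824% of T/NK-like cells; unthinned, the fibroblast shares were 49.3% and 35.4%. Mmp14 and its substrate proMmp2 were often found in the same cells. Among thinned fibroblast-like cells with an Mmp14 count, 59.8% in the Shi-Bi-Man library and 60.0% in the imiquimod library also had an Mmp2 count, against 43.9% and 38.8% of those without. Timp3 was the other way round: Mmp2 was found in 45.4% and 40.6% of cells with a Timp3 count and in 54.6% and 52.8% of those without. Subsets differ in both genes, so these shares describe the class and not single cell states.

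The macrophage and monocyte-like class held most counts of Mmp12 and Mmp13 in both libraries, and most Mmp9 counts in the imiquimod library only. Of the Mmp9 counts in retained cells it held 3 of 15 with Shi-Bi-Man and 90 of 161 with imiquimod. Langerhans-like cells held 8 and 30 of them. In the macrophage and monocyte-like class Mmp9, Mmp12 and Mmp13 all had lower sums with Shi-Bi-Man. Of the 9 members with at least 20 counts 2 were 1.5-fold or more higher (Mmp2 and Mmp3) and 5 that much lower (Mmp9, Mmp12, Mmp13, Mmp14 and Timp1). Over all 10127 genes measured in this class 13.9% were that much higher and 11.7% that much lower. The median log2 ratio was -0.61 over the members and 0.02 over all genes. The class consisted of 2 clusters: one with resident dermal macrophage markers (Cd209f, Folr2, Cd163 and the rest of that list, 7 of 7; 339 and 534 cells), and one led by Ear2 and Lyz1 (388 and 933 cells). The Ear2 Lyz1 cluster also held dendritic cell markers, 774 CPM over 8 genes with Shi-Bi-Man against 376 CPM with imiquimod, and haemoglobin and other erythroid markers at 14.4 CPM over 5 genes against 3070 CPM. The part of both in the ratios was not tested.

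Mmp12 (macrophage elastase; chr9:7344381-7369499, plus strand) lay mostly in the Ear2 Lyz1 cluster, which held 84.8% and 85.1% of the Mmp12 counts of the libraries. There it was at 430.3 CPM (377 to 488) in the Shi-Bi-Man library and 567 CPM (531 to 606) in the imiquimod library, a log2 ratio of -0.40 (-0.61 to -0.19), from 239 counts in 52 cells against 896 counts in 129 cells. Thinned shares of the cluster's cells with an Mmp12 count were close, 7.73% (5.28% to 10.9%) and 7.4% (5.8% to 9.27%), and unthinned they were 13.4% and 13.8% at median depths of 1237 and 1388. No T/NK-like cell had an Mmp12 count after thinning in the Shi-Bi-Man library, which allows a share of up to 0.611%, and 0.206% had one in the imiquimod library. Over the class the level was 235 against 379.7 CPM, with a ratio of -0.69 (-0.90 to -0.48). That ratio was -0.41 with the imiquimod mix of clusters, within 1.5-fold, and -1.86 at a finer clustering that took an Mmp12-rich cluster out of the class. The Ear2 Lyz1 cluster was 388 of 727 class cells with Shi-Bi-Man and 933 of 1467 with imiquimod. The resident-marker cluster had 1 count against 13.

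Mmp13 (collagenase-3, a rodent interstitial collagenase; chr9:7272514-7283331, plus strand) was sparse. The Ear2 Lyz1 cluster had 13 counts in 6 cells against 86 counts in 24 cells, 23.4 against 54.4 CPM and a log2 ratio of -1.17 (-2.18 to -0.37). A single Shi-Bi-Man cell held 61.5% of those counts. The resident-marker cluster had 8 counts against 2, so the 2 clusters ran in opposite directions. The class ratio of -0.81 (-1.60 to -0.14) became 0.02 at a finer clustering, in which an unnamed cluster took cells out of the class.

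Mmp9 (gelatinase B, stored by neutrophils and made by macrophages and Langerhans cells; chr2:164940780-164955850, plus strand) was concentrated in the resident-marker cluster of the imiquimod library. That cluster had 3 counts in 3 cells with Shi-Bi-Man against 86 counts in 55 cells with imiquimod. The levels were 6.46 CPM (1.33 to 18.9) and 106 CPM (84.5 to 130.5), a log2 ratio of -3.82 (-6.34 to -2.44). Thinned shares of cells with Mmp9 were 0.295% (0.00747% to 1.63%) and 3.93% (2.45% to 5.95%), unthinned 0.885% and 10.3%, at median depths of 1227 and 1398. T/NK-like cells gave 0.204% and 0.206% after thinning. The Shi-Bi-Man share was close to that background and the imiquimod share was above it. Neutrophil-like cells were too few for a ratio, 3 and 35 cells with 1 and 14 Mmp9 counts. Langerhans-like cells had 8 counts in 66 cells against 30 in 562 cells, which is 61.3 CPM (26.5 to 121) against 18.5 CPM (12.5 to 26.4), so Mmp9 was not lower with Shi-Bi-Man in every cell type that held it.

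In macrophages Mmp14 was lower with Shi-Bi-Man in 1 of the 2 clusters. In the Ear2 Lyz1 cluster it was at 79.2 CPM (57.6 to 106) against 215 CPM (192 to 239), a log2 ratio of -1.42 (-1.93 to -0.98). In the resident-marker cluster it was at 88.3 CPM (63.4 to 119.8) against 51.6 CPM (37.2 to 69.7), a ratio of 0.78 (0.12 to 1.43) that was 0.08 with Scrublet's automatic threshold for doublets. T/NK-like cells held 47.0 and 49.5 CPM, so the clearest level above background was that of the Ear2 Lyz1 cluster in the imiquimod library. Timp2 was the inhibitor that stood above background in macrophages, at 736 against 652 CPM in the resident-marker cluster with a log2 ratio of 0.18 (-0.03 to 0.37) and 230.4 against 176 CPM in the Ear2 Lyz1 cluster with a ratio of 0.39 (0.08 to 0.70). Timp2 was at 139 and 82.0 CPM in T/NK-like cells, a log2 ratio of 0.77 (0.33 to 1.17). The part of this background in the macrophage ratios of Timp2 was not tested. Timp1 had only 10 and 37 counts in the class.

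The fibroblast genes Mmp2 and Mmp3 were past 1.5-fold higher in macrophages, and the background moved with them. Mmp2 was at 94.1 against 52.6 CPM in the class, a log2 ratio of 0.84, and at 87.3 against 50.2 CPM in T/NK-like cells, a ratio of 0.81. Mmp3 was at 28.4 against 16.7 CPM (0.77), beside 38.0 against 17.3 CPM (1.16). Fibroblast markers summed to 2990 CPM in macrophages with Shi-Bi-Man against 1100.3 CPM with imiquimod. The levels of Mmp2 and Mmp3 in macrophages were therefore at or near those of cells that should lack them, and the part of free RNA in their ratios was not tested.

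**Figure D4:**
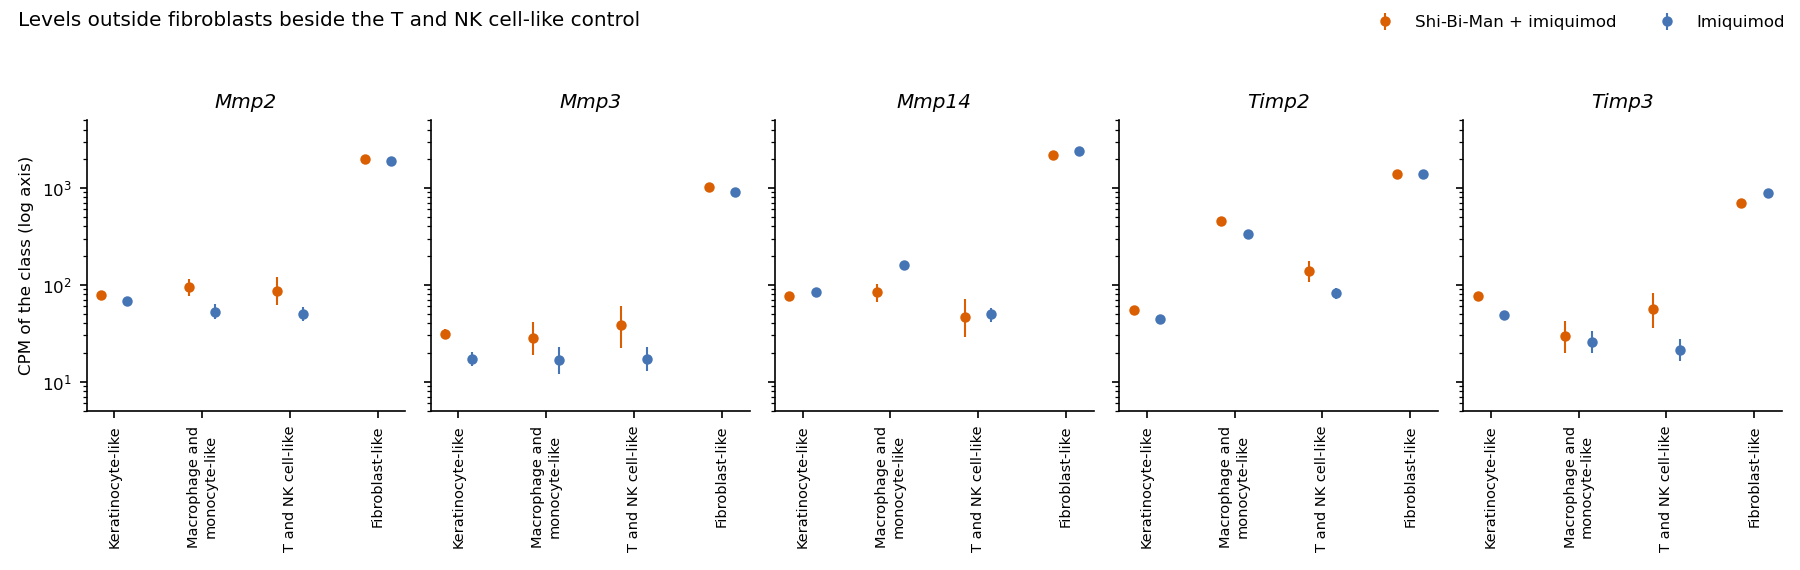
Levels (CPM, log axis) of Mmp2, Mmp3, Mmp14, Timp2 and Timp3 in keratinocyte-like, macrophage and monocyte-like, T/NK-like and fibroblast-like cells, Shi-Bi-Man library left of imiquimod library, with 95% Poisson intervals. Mmp2 in macrophages (94.1 and 52.6 CPM) lies beside the T/NK-like level (87.3 and 50.2 CPM), far below that of fibroblasts.

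In the keratinocyte-like class Timp3 stood above the T/NK-like level in hair follicle cells and was higher there with Shi-Bi-Man, and Mmp13 was found mainly in stress keratin cells of the imiquimod library. Of 9 members with at least 20 counts 3 were 1.5-fold or more higher (Mmp3, Timp1 and Timp3) and 3 that much lower (Mmp11, Mmp12 and Mmp13). Over all 14215 genes measured in this class 14.3% were that much higher and 12.3% that much lower, and the median log2 ratio was 0.21 over the members and -0.01 over all genes. The 2 libraries filled the class from different clusters. A cluster of 911 and 36 cells, one of 306 and 63 and a granular one of 213 and 0 came mainly from the Shi-Bi-Man library, whereas a stress keratin cluster (295 and 798 cells) and an upper follicle cluster (215 and 716 cells) came mainly from the imiquimod library. Timp3, Mmp13 and Mmp14 are therefore given for some of the clusters, and all class values mix the clusters.

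Timp3 in the follicle stem and outer root sheath cluster (636 and 484 cells) was at 229 CPM (208 to 251) against 83.1 CPM (68.9 to 99.3), a log2 ratio of 1.46 (1.17 to 1.76). The upper follicle cluster held 132 against 50.8 CPM, a ratio of 1.38 (1.0 to 1.76). The stress keratin cluster held 43.8 against 34.6 CPM, a ratio of 0.36 (-0.20 to 0.85). In T/NK-like cells Timp3 was itself at 55.9 against 21.4 CPM, a ratio of 1.40 (0.65 to 2.07), so the stress keratin level was at background in the Shi-Bi-Man library and the follicle levels were above it in both. The background ratio was about as large as the ratios of both follicle clusters, and its part in them was not tested. Thinned shares in the follicle stem and outer root sheath cluster were 8.18% (6.17% to 10.6%) and 3.31% (1.9% to 5.31%), unthinned 29.1% and 15.5%, beside thinned 2.04% and 1.4% in T/NK-like cells. Hair matrix and inner root sheath markers in that cluster summed to 719 CPM over 10 genes with Shi-Bi-Man against 54.9 CPM with imiquimod; their part in the Timp3 ratio was not tested.

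Mmp13 in keratinocytes came mostly from the stress keratin cluster of the imiquimod library. The class had 5 counts against 50, a log2 ratio of -3.19 (-5.00 to -1.99). The stress keratin cluster accounted for 2 and 42 of them, at 2.19 against 9.62 CPM with a ratio of -1.83 (-5.23 to -0.19). That interval is wide because it rests on 2 counts. T/NK-like cells had 0 and 1 Mmp13 count. Mmp12 was at 2.31 against 6.46 CPM in the class, beside 0 and 3.8 CPM in T/NK-like cells, and Mmp11 had 9 counts against 19. Mmp14 in the stress keratin cluster was at 132 against 69.4 CPM, a ratio of 0.93 (0.60 to 1.23), while the follicle stem and outer root sheath cluster was level at 138 against 138 CPM. Over the class Mmp14 was at 75.9 against 85.2 CPM, a ratio of -0.17 (-0.31 to -0.02), so the stress keratin ratio does not stand for the class. Mmp3 (30.9 against 17.2 CPM) and Timp2 (54.5 against 44.6 CPM) were at or below their T/NK-like levels, as was Mmp2 in the Shi-Bi-Man library (79.0 against 68.4 CPM). Timp1, with 43 counts against 22 over the class and a ratio of 0.96 (0.20 to 1.79), was at 4.51 against 2.29 CPM, below its T/NK-like level of 11.2 against 5.88 CPM. Of its Shi-Bi-Man counts 17, 8 and 4 lay in the 3 clusters that came mainly from that library. The 8 fibroblast markers summed to 1803 and 753 CPM in keratinocyte-like cells, below the 3258 and 1098 CPM of T/NK-like cells. Median depths were 3097.5 and 3596 counts against 776 and 999. Whether T/NK-like levels set the right background for keratinocyte-like cells was not tested.

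Outside these classes the family appeared in hair-associated mesenchyme and in vessels. In dermal papilla-like cells (435 and 259) Mmp14 was at 756 CPM (690.4 to 825) against 406 CPM (342 to 477), a log2 ratio of 0.89 (0.63 to 1.17), opposite in direction to the Igfbp2 Mme Sema3a subset. Among the 6984 genes measured in these cells, 32.9% were 1.5-fold or more higher and 13.6% that much lower. Their median log2 ratio was 0.27. A finer clustering split these cells almost by library, into 405 and 12 cells and 29 and 246 cells. Mmp14 was then at 819.8 CPM (507 counts) against 1756 CPM (17 counts) in the first. In the second it was at 605 CPM (25 counts) against 395 CPM (138 counts). Each cluster had under 50 cells in 1 library, too few for a ratio, so the higher class value could not be followed within either. Mmp2, Timp2 and Timp3 in dermal papilla-like cells had ratios of 0.51, 0.24 and 0.47, each with an interval that took in 0.

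Timp3 had its highest class level in lymphatic endothelial-like cells, at 2503 CPM (2290.2 to 2731) in the Shi-Bi-Man library and 1746 CPM (1591 to 1911) in the imiquimod library, a log2 ratio of 0.52 (0.34 to 0.70). Schwann and glia-like cells came next, at 1133 and 1181 CPM from 33 and 71 cells. Fibroblast-like cells (692 and 887 CPM) followed. Pericyte and smooth muscle-like cells were at 622 CPM (522 to 734) and 472 CPM (403 to 551), and blood endothelial-like cells at 614 CPM (538 to 696) and 529.5 CPM (485 to 577), so that the order of these 2 could not be told within counting error. Their log2 ratios were 0.40 (0.06 to 0.73) and 0.21 (-0.01 to 0.44). Timp2 was also present in lymphatic endothelial-like cells, at 769 against 617 CPM and a ratio of 0.32 (-0.01 to 0.64). In all 3 vessel-associated classes Timp3 was nominally higher with Shi-Bi-Man, and its interval took in 0 in blood endothelial-like cells.

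Other genes of matrix turnover were listed beside the members, and their counts in fibroblasts are to be read against the 10.2% of all genes that were 1.5-fold higher and the 10.1% that were lower. In fibroblast-like cells 6 further metalloproteinases were measured, of which 0 were 1.5-fold higher and 3 that much lower; Mmp19 was at 73.0 against 111 CPM, log2 ratio -0.61, and Mmp27 at 58.7 against 39.8 CPM, log2 ratio 0.56. Reck, a membrane-anchored inhibitor of metalloproteinases, was at 148 against 96.9 CPM, log2 ratio 0.61, and Tfpi2, a secreted protease inhibitor, at 18.5 against 42.5 CPM, log2 ratio -1.20. Among 14 Adamts proteases 2 were past 1.5-fold higher and 2 lower, with Adamts5, an aggrecan-cutting protease, at 191 against 305 CPM, log2 ratio -0.68. The Adamts counts were near the shares of all genes. Plasmin activates several metalloproteinases, and of 8 genes of plasminogen activation 1 was higher and 4 lower in fibroblasts. The lower ones included tissue plasminogen activator (Plat), at 171 against 315 CPM, log2 ratio -0.88, and the inhibitor Serpine2, at 18.7 against 51.2 CPM, log2 ratio -1.45. The higher one was Serpinb2, plasminogen activator inhibitor 2, at 272 against 47.8 CPM, log2 ratio 2.50.

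Serpinb2 was also higher in keratinocyte-like cells, its richest class, at 4612 against 955 CPM, log2 ratio 2.27, and in macrophages at 459 against 66.8 CPM, log2 ratio 2.78. The cystatin Cst6, an inhibitor of cathepsins, ran the other way in keratinocytes, at 998 against 6084 CPM, log2 ratio -2.61, and was also lower in fibroblasts, at 20.5 against 139 CPM, log2 ratio -2.75. Both are abundant keratinocyte genes, and whether their counts in the other classes are free RNA was not tested. The mix of keratinocyte-like clusters differed between the libraries, as given above. Cst6 is itself among the markers of the upper follicle cluster (215 and 716 cells). These class values mix the clusters, and the part of the mix in the keratinocyte ratios was not tested. The 9 AP-1 subunits stayed within 1.5-fold in fibroblasts, with Jun at 2727 against 2218 CPM, log2 ratio 0.30 and Fosl1 at 89.3 against 114 CPM, log2 ratio -0.35. In keratinocytes 1 of the 9 was past 1.5-fold higher and 1 lower, Fosl1 at 471 against 266 CPM, log2 ratio 0.82, and Batf, named after its values were seen, with 8 counts against 20. In macrophages 1 of the 9 was higher and 0 lower, Jun at 1749 against 1112 CPM, log2 ratio 0.65, where 13.9% of all genes were higher. In dermal papilla-like cells 0 of the 8 measured subunits were higher and 6 lower, where 32.9% of all genes were higher and 13.6% lower. A list of 14 receptors of metalloproteinase inducers held cytokine receptors together with Bsg, Ddr1, Ddr2 and Lrp1. In fibroblasts 0 of the 14 were higher and 3 lower. The lower ones included the interleukin 17 receptor Il17ra, at 77.4 against 123 CPM, log2 ratio -0.67, and the tumour necrosis factor receptor Tnfrsf1b, at 11.5 against 23.0 CPM, log2 ratio -1.0.

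Across 47 cluster and library profiles, each member was set beside 9242 genes by Pearson correlation of log2(CPM + 10). These were all genes with enough counts outside the 10 members and the gene lists above. The profiles share libraries and class identity, so the values describe where genes are expressed. Mmp2 was most like Col3a1 (0.95), Dcn and Thbs2 (0.94 each), genes of collagenous matrix, and Mmp3 most like Thbs2 (0.91), Efemp1 and Lum (0.90 each). Mmp14 was most like the collagen gene Col5a2 (0.91) and Timp1 most like Lox (0.92) and Eln (0.90), lysyl oxidase and elastin. The likeness was lower for Mmp11, whose nearest genes were Masp1 (0.84), Ccbe1 (0.83) and Twist2 (0.81). Mmp12 was most like Cd300c2 (0.90) and also like Il1b (0.86), and Mmp13 most like Lyz1 (0.79) and Mpeg1 (0.76), genes of myeloid cells. Mmp9 was most like Ltc4s (0.82) and Alox5 (0.76), both of leukotriene synthesis. Timp2 was most like Fam114a1 (0.92) and Cmtm3 (0.91), and Timp3 most like Arhgap29 (0.89), Csrp2 and Mpdz (0.88 each).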

How the data were processed

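The deposited matrices hold whole-number counts per gene and cell barcode, per the file headers, from 3′ transcriptome libraries of dorsal skin, per the labels' protocols. The builds mm10 and GRCm38 are named per the submitters' processing notes; the aligner, the collapsing of molecules, the use of strand and the cell calling are not given in the sources used here. Every deposited barcode had at least 500 counts, the authors' files giving no unfiltered droplets. The number of mice per library is not known, and each group has 1 library, so no test and no p-value is given.

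Cells with at least 200 genes and at most 20% mitochondrial counts were kept, and the 5% with the highest Scrublet scores were removed per library, since the automatic threshold called 1.04% of Shi-Bi-Man cells and 0 imiquimod cells. Counts were scaled to 10000 per cell, and 2000 variable genes without the members and listed genes, 30 components, 15 neighbours and Leiden resolution 1 were used (scanpy 1.11.5, igraph 0.11.9). A cluster was named by at least 3 markers that were 2-fold higher and in 10% of its cells. Counts were then summed per class or cluster as CPM. Log2 ratios, Shi-Bi-Man over imiquimod, add 0.5 to each count; intervals (95%) are exact Poisson for levels, conditional binomial for ratios and Clopper-Pearson for shares, and cover counting error only; where a share is 0, the limit given is 3 counts of the total. A gene was measured with at least 20 counts in a class and called past 1.5-fold. Simulated ratios, drawn as independent counts under the model that the intervals assume, were recovered with the stated coverage. The simulation had no grouping of counts within single cells, so it cannot tell the coverage on these data.

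The 10 genes, the marker trios and the other gene lists were chosen with earlier results of these data known. All members are named; of each list, the 2 highest and 2 lowest ratios among genes with at least 50 counts could be named, and of like genes the 3 nearest, by Pearson correlation. Positions are those of the GRCm38 annotation (GENCODE vM21), which matched 55144 of 55471 entries, and promoter sequences are from RefSeq. Alternatives were other doublet handling, filters, clusterings, scalings (edgeR 4.0.16 TMM and DESeq2 1.42.0 size factors), thinning depths, count minimum, fold and subtraction of free RNA; 4 were added after seeing the data.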

Additional observations from a re-analysis of the deposited data

How the results depend on the processing

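With 1 library per group no replicate could be left out. No paired analysis was possible because each group has 1 library and no test was made. Over the 3 classes, 100 recomputed counts of members past 1.5-fold stayed within 1.5 times the reported count and 6 did not. The exceptions follow; the cause was not tested unless stated. In macrophages the members called higher went to 0 with Scrublet's automatic threshold, and those called lower to 3 at clustering resolution 2. With 2-fold in place of 1.5-fold, a stricter call by construction, the macrophage counts were 0 higher and 1 lower and the keratinocyte count was 0 higher. With the imiquimod mix of clusters, an alternative chosen after seeing the data, the macrophage count called lower was 3. Of 379 recomputed ratios of members past 1.5-fold, 336 stayed within the reported counting interval, 36 moved outside it and 7 turned sign. Of 321 recomputed ratios of members within 1.5-fold, 29 turned sign, 20 of them outside that interval, among them Timp3 (0.45) and Mmp3 (-0.16) in the fibroblast-like class with the imiquimod mix and Mmp14 in keratinocytes (0.56) without the 3 clusters that came mainly from the Shi-Bi-Man library. Past 1.5-fold, Mmp13 (0.016) and Timp1 (0.51) in macrophages turned at resolution 2, and Mmp11 in keratinocytes (0.15) after subtracting 5% of the whole-library profile. In alternatives added after seeing the data, Mmp2 (0.24) and Mmp3 (0.75) in the Coch Lrrc15 Fmod subset turned with at least 500 genes per cell, and Timp3 turned in the wider groups of cells that the Igfbp2 Mme Sema3a trio marked at resolution 0.5 (-0.17) and with 20 components (-0.13). Mmp11 kept its sign in the Igfbp2 Mme Sema3a subset under all 8 such alternatives, those 2 wider groups included, between -4.53 and -3.36, and Timp1 in the fibroblast-like class under all 16 run, between -1.26 and -0.96. Mmp9, Mmp12 and Mmp13 rest on few cells, so that single cells weigh on their ratios.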

Other observations

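Over all barcodes, before any filter or cell naming, Mmp2 was at 559 CPM in the Shi-Bi-Man library against 351 CPM in the imiquimod library, Mmp14 at 633 against 468 CPM and Timp2 at 435 against 305 CPM. These whole-library values are higher with Shi-Bi-Man although the fibroblast-like class ratios lie between -0.14 and 0.08 on the log2 scale, and fibroblast-like cells were 2208 of 7554 retained cells with Shi-Bi-Man against 1969 of 10469 with imiquimod. A sum over the whole library does not tell more cells of a type from more RNA per cell. Mmp11 was at 8.21 against 29.0 CPM and Mmp13 at 1.39 against 5.5 CPM over all barcodes, both lower with Shi-Bi-Man. Mmp11 was also lower in the fibroblast-like class. For Mmp13 the macrophage and monocyte-like class ratio was -0.81, but it was 0.02 at clustering resolution 2, and the resident-marker cluster ran the other way.

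At clustering resolution 2 an unnamed myeloid cluster (185 and 576 cells), led by Ear2, Cd209a and Mmp12, held 75.5% of Mmp12 counts in the Shi-Bi-Man library and 67.1% in the imiquimod library, at 670.5 and 718 CPM. The same cluster held 7.41% and 32.7% of Mmp13 counts.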
